A study of Mus musculus with 6 samples.

Results

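Ribosomal protein pseudogenes are copies of the genes for the proteins of the cytosolic ribosome. They were taken from the deposited gene expression matrix as the rows with a mouse Ensembl gene identifier and a symbol made of a ribosomal protein gene name (Rpl, Rps, Rplp or Rpsa) followed by the pseudogene suffix "-ps". The rule found 322 of the 60193 listed genes, named after 65 parent genes. The samples were oocytes at metaphase II, the arrested stage at which the egg is ovulated, from ICR mice (an outbred stock) of 42 to 45 weeks of age and of the same stock in both groups. In the IVM group (in vitro maturation, n = 3), mice received 5 IU of PMSG (a gonadotropin that stimulates follicle growth), oocytes were collected 46 h later and were matured for 12 h in culture. In the IVO group (in vivo maturation, n = 3), mice received PMSG and, 46 h later, 5 IU of hCG (a gonadotropin that triggers ovulation), and oocytes were collected 14 h after hCG. Each sample was a pool of 20 oocytes from 3 mice, so that single animals cannot be told apart and p-values measure the spread between pools.

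A processed pseudogene arises when the spliced mRNA of a gene is copied into DNA and inserted elsewhere in the genome, without introns and usually without a promoter of its own. Ribosomal protein mRNAs are abundant and short, and they have left many such copies in mammalian genomes. Oocytes store ribosomes and their mRNAs for the early embryo and make almost no new RNA at metaphase II, so that the pool of stored RNA changes largely through decay and poly(A) tail length. Because a recent copy is close to its parent in sequence, a short read from either of them can fit both. The RSEM program used for these files then divides such reads between the copies by an estimate.

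The sequences show how far a member can be told from its parent. In the pairs given here, 60 bases of the member on the GRCm39 assembly are set above the aligned coding sequence of the parent mRNA from the GENCODE annotation, and capitals mark the bases that differ between them. Each window is the stretch with the most differences. Rpl15-ps1 (chr11:21903332-21903391, plus strand) and Rpl12-ps2 (chr11:20240215-20240274, minus strand) are shown as members with high values that differ at many bases.
Rpl15-ps1: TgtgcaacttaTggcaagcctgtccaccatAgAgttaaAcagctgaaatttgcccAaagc
Rpl15: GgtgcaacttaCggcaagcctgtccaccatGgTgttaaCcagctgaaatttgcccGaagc
Rpl12-ps2: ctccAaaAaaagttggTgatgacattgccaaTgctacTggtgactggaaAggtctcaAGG
Rpl12: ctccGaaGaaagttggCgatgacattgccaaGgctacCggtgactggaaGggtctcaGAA

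Rps15a-ps4 (chr4:131947415-131947474, minus strand) is shown because, with Rpl15-ps1, it was a tested member with every IVO value above every IVM value, and Rpl34-ps1 (chr6:71101666-71101725, plus strand) because it had the highest level and differs from its parent at 2 bases of the whole coding sequence.
Rps15a-ps4: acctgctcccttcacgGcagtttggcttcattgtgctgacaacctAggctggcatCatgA
Rps15a: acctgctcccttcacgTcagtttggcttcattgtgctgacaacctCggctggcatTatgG
Rpl34-ps1: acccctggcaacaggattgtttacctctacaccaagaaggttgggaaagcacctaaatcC
Rpl34: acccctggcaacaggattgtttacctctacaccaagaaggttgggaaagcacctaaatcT

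The first 60 coding bases of Rpl10 are shown for the opposite case, since Rpl10-ps1 and Rpl10-ps3 hold all 645 bases of that coding sequence with no difference, and no capitals are needed.
Rpl10, Rpl10-ps1 and Rpl10-ps3: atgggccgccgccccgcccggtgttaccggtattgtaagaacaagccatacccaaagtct

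The matrix gives FPKM, read fragments scaled to transcript length and to the number of mapped fragments, and levels are compared as values per length. Library depth was read from the steps between the lowest values, and came to 16450000 to 19400000 fragments in IVM and 17850000 to 18150000 in IVO. The mean fragment length fitted with it was 208 to 217 bases in IVM and 249 to 264 in IVO. For a gene not much longer than a fragment, the length left for scaling is small and differs between the groups. Levels of short members against longer parents, and their fold changes, carry this limit. For a gene of 400 bases, close to the length of many members, 3 fragments correspond to 0.805 to 0.991 FPKM in IVM and 1.106 to 1.206 FPKM in IVO, and a value below that level was not distinguishable from 0 at this depth. All 10 oocyte markers checked were at 26.03 FPKM or above in every sample, and 5 of them were called lower in IVO by the test described further on (Zp2, log2FC -3.69, Zp3, -3.13, Zp1, -2.43, Nlrp5, -1.99, and Padi6, -1.38). Of 15 markers of cumulus, granulosa, stromal and blood cells, 3 reached 1 FPKM (Nr5a2, Cyp19a1 and Fshr), Amh was at 0 in all 6 samples, and the summed level of the list was 62.3 to 64.9 FPKM in IVM and 44.7 to 53.7 FPKM in IVO. Nr5a2 fell from a mean of 34.0 to 15.9 FPKM, whereas Cyp19a1 was at 17.2 and 19.8 FPKM and Fshr at 11.1 and 11.7 FPKM. Has2, Ptx3 and Tnfaip6 had every IVO value above every IVM value, all under 0.5 FPKM. The part of these cells in the results was not tested.

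Most ribosomal protein pseudogenes had no signal. Of the 322 members, 204 were listed at 0 in all 6 samples, 56 had a value above 0 that stayed below 1 FPKM, and 62 reached 1 FPKM in at least 1 sample, which is called detected here. Only 22 members reached 1 FPKM in all 6 samples. Each IVM sample had 44, 47 or 41 members at 1 FPKM or above and each IVO sample had 35, 32 or 35. The same count over all listed genes was not made. The median FPKM of all genes tested further on was 9.63 to 10.41 in IVM and 6.66 to 7.13 in IVO. For a gene of 400 bases, 1 FPKM lies above the level of 3 fragments in IVM and below it in IVO. These counts are therefore not read as a difference between the groups. The largest families were those of Rpl31 and Rps12, with 24 members each, of which 3 and 2 were detected. None of the 14 members named after Rpl23a, a large subunit protein, was above 0 in any sample.

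Detected members were closer to their parents in sequence than the others. Uniqueness was measured as the share of a member's 100-base windows that occur nowhere else in the genome or in transcripts of other genes. Its median was 26.1% for the 62 detected members and 96.0% for the other 260. Of the 31 members with no unique window, 61.3% were detected, against 40.0% of 55 with under 50% unique windows, 11 of 110 with 50% to under 100%, and 7.9% of 126 whose windows were all unique. The median identity to the parent's coding sequence was 99.4% for detected members and 94.9% for the 259 others that could be aligned. Of 11 members that held their parent's whole coding sequence with no mismatch, 10 were detected, and the other was Rpl10a-ps1, at a mean of 0.252 FPKM. These shares describe the members as estimated by RSEM, and for a member with few unique windows a detected value cannot be told apart from reads of the parent or of another copy.

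**Figure D1:**
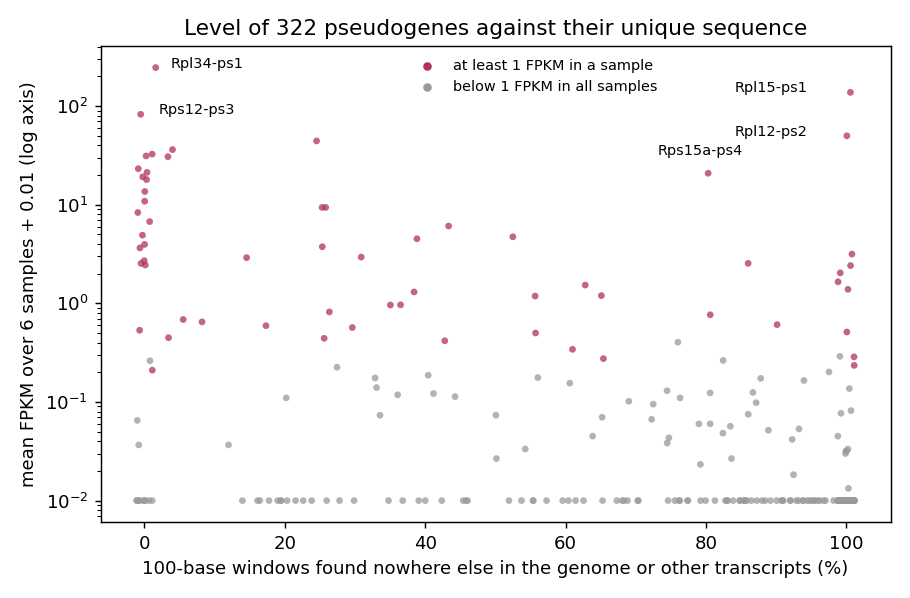
Mean FPKM over the 6 samples (log axis, 0.01 added) of each of the 322 members against the percentage of its 100-base windows found nowhere else, with detected members in red and a small horizontal jitter. Most detected members sit at the left, and Rpl15-ps1 and Rpl12-ps2 stand out among the members with 100% unique windows.

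Position in the genome went with detection as well. In the GENCODE annotation 279 members are processed pseudogenes, of which 16.5% were detected, and 38 are transcribed processed pseudogenes, of which 31.6% were detected. Another 4 are annotated as protein-coding, among them Rpl10-ps3 and Rps18-ps6, and Rps18-ps4 is a long noncoding RNA. Of 59 members that overlap an exon of another gene, 32.2% were detected, compared with 17.0% of 112 inside an intron and 15.9% of 151 that overlap no other gene. Reads of the overlapping gene on either strand could be counted to such a member, since the kit does not mark the strand.

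The summed level of all members was lower in IVO. It came to 1250.3, 1410.3 and 1207.2 FPKM in IVM and to 583.9, 553.2 and 574.3 FPKM in IVO, with no overlap, and the IVO mean was 0.442 of the IVM mean. The fall was not particular to the members. Their parent genes summed to 5962.8, 6027.8 and 5499.9 FPKM in IVM and 2461.8, 2489.8 and 2571.1 FPKM in IVO. The sum over all listed genes was 1826738 to 2111776 FPKM in IVM and 1560813 to 1643682 in IVO. Rpl34-ps1 alone gave 25.4% to 31.7% of the sum in IVM. The members with at least 80% unique windows had a sum of 202.0, 224.7 and 237.3 FPKM in IVM and 231.6, 220.6 and 239.1 FPKM in IVO, where the groups overlapped. The sum of these more unique members is mostly that of Rpl15-ps1, Rpl12-ps2 and Rps15a-ps4, which are described in turn.

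IVO was compared with IVM for every gene with limma on log2(FPKM + 1), and a gene was called at an adjusted p under 0.05 and an absolute log2 fold change (log2FC, IVO over IVM) of at least 1. The filter, a mean of at least 1 FPKM over the 6 samples, was passed by 42 members (13.0%), and 8 of them passed through IVM, having an IVO mean below 1 FPKM. Of the 42, 12 (28.6%) were lower in IVO and 0 were higher. Over all 18818 tested genes, 17.9% were called lower and 0.606% higher. At an unadjusted p under 0.05, 14 members were lower and 2 were higher. In 15 members all IVM values lay above all IVO values, which held for 32.6% of all tested genes, in 2 the IVO values lay above, which held for 9.62%, and in the other 25 the groups overlapped. The median log2FC was -0.93 over the 42 members and -0.30 over all tested genes. Median-ratio scaling of the libraries moved the median of all genes to -0.03, with 2078 genes called lower and 389 higher in place of 3366 and 114. Quantile normalization moved it to 0.17, with 1580 lower and 1097 higher.

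Among the protein-coding ribosomal protein genes, the other genes of the pathway, about as many were called lower as were not called. Of 79 on the list, 77 were tested, 39 (50.6%) were called lower in IVO, 38 were not called and 0 were higher by limma, where 55 were lower and 0 higher at an unadjusted p under 0.05. The number called lower was 23 after median-ratio scaling of the libraries and 18 after quantile normalization. Their median log2FC was -1.13, and 4 of the 77 had a log2FC above 0 (Rplp0, Rps3a1, Rpl4 and Rps6, at most 0.32). Over all tested genes, 17.9% were called lower and the median log2FC was -0.30. After median-ratio scaling, 2078 of 18640 tested genes were called lower, and after quantile normalization 1580 of 18818.

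The highest member of all was Rpl34-ps1, a copy of the large subunit gene Rpl34 on chr6:71101594-71101947 that overlaps no other gene. Its values were 391.22, 447.29 and 306.18 FPKM in IVM and 117.79, 94.55 and 115.61 FPKM in IVO. Every IVM sample was above 300 FPKM and every IVO sample below 120 FPKM. The mean fell from 382 ± 71.0 to 109 ± 12.8 FPKM (SD, n = 3), with a log2FC of -1.78 (SE 0.20, adjusted p = 0.00203 by limma). With fragment numbers not divided by length the log2FC was -2.30. Rpl34 itself was at 160.67, 167.11 and 123.82 FPKM in IVM and 54.15, 57.43 and 62.56 FPKM in IVO, so that the copy was listed above its parent in each of the 6 samples. Only 1.6% of the windows of Rpl34-ps1 are unique. The copy took 70.9% to 72.8% of the summed level of the Rpl34 family in IVM and 62.2% to 68.5% in IVO, also with no overlap. With so few unique windows, this shift cannot be told apart from a different division of the same reads.

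Rps12-ps3, a copy of the small subunit gene Rps12, lies on chr19:59310803-59311198 in an intron of Pdzd8 on the opposite strand and in an exon of a long noncoding RNA. It was at 104.72, 161.93 and 144.84 FPKM in IVM and at 9.17, 35.49 and 38.52 FPKM in IVO. All IVM values were above all IVO values, and the lowest IVO sample was well below the other two. The log2FC was -2.47 (SE 0.52, adjusted p = 0.0154 by limma), and the adjusted p rose to 0.0592 without IVM replicate 2 and to 0.0553 without IVM replicate 3. Without IVO replicate 1, the low sample, the log2FC was -1.84 and the call was made. It has no unique window, and Rps12 had a log2FC of -1.57.

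Rps13-ps2, on chr7:88179654-88180106 with no overlapping gene, matches the coding sequence of the small subunit gene Rps13 with no mismatch over 99.3% of its length. Its values were 57.81, 48.01 and 55.50 FPKM in IVM and 12.68, 9.10 and 12.20 FPKM in IVO, a fall of 2.16 on the log2 scale (SE 0.20, adjusted p = 0.00135 by limma). Rps13 was at 56.34, 19.65 and 14.64 FPKM in IVM and 10.74, 8.81 and 12.53 FPKM in IVO. The pseudogene was tight within the IVM group where the parent was not, and Rps13 was not called (log2FC -1.19, adjusted p = 0.111 by limma). Since the matched sequences are identical, this contrast cannot be told apart from a different division of the same reads.

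Among copies of Rps2, another small subunit gene, 2 had a mean level above the parent's. In IVM replicate 2 the parent, at 43.66 FPKM, was above both of them. Rps2-ps10 was at 53.43, 42.33 and 53.98 FPKM in IVM and 25.63, 17.13 and 24.59 FPKM in IVO, and was called lower (log2FC -1.13, SE 0.23, adjusted p = 0.0131 by limma). That call was lost with median-ratio scaling (-0.81), with quantile normalization (-0.67) and without IVO replicate 2 (-0.96). Rps2-ps13 was at 80.17, 27.58 and 71.51 FPKM in IVM and 26.04, 34.15 and 26.24 FPKM in IVO, where IVM replicate 2 overlapped the IVO samples and no call was made (log2FC -0.90, adjusted p = 0.152 by limma). Without IVM replicate 2 its log2FC was -1.37 (adjusted p = 0.0154 by limma) and it was called. The IVM values of the parent Rps2 were between 20.12 and 43.66 FPKM, and its IVO values between 13.49 and 19.62 FPKM.

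**Figure D2:**
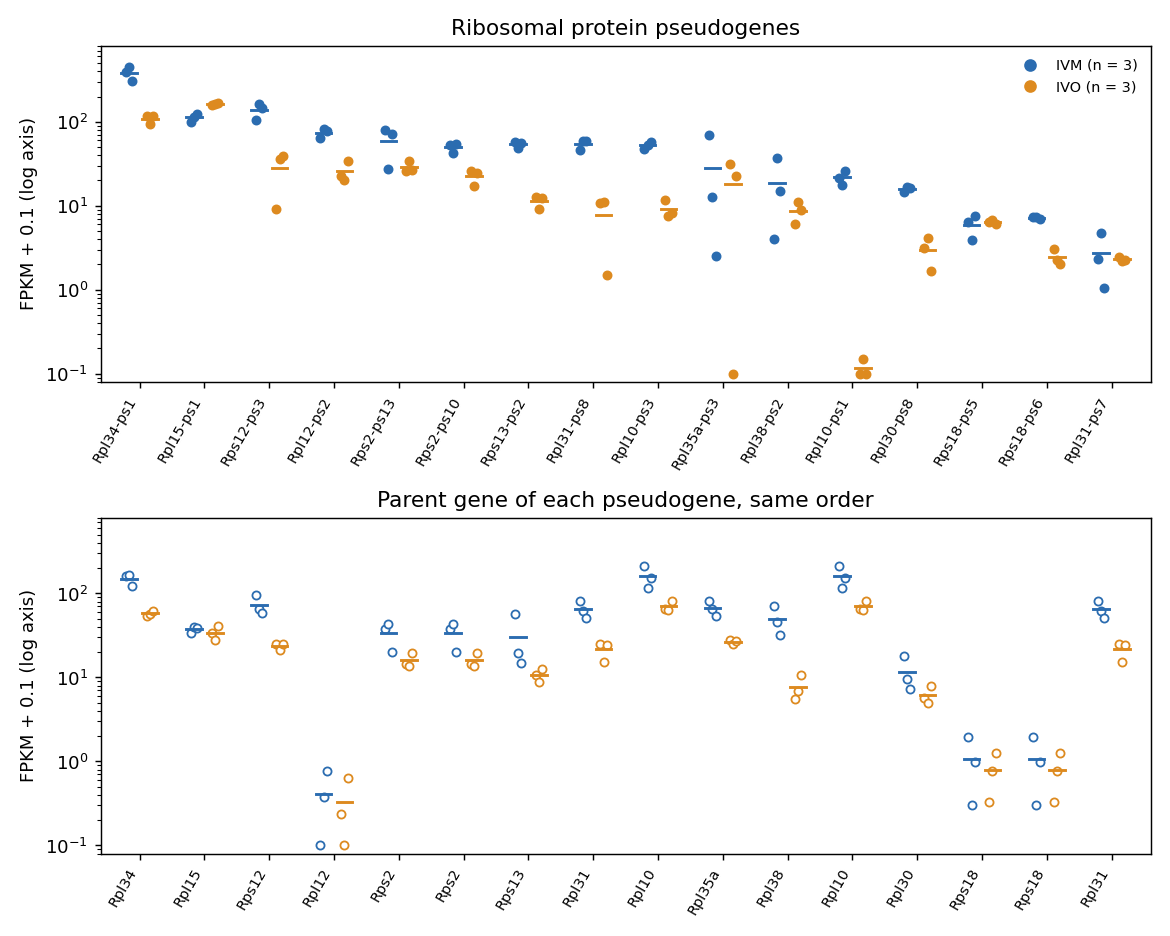
FPKM plus 0.1 (log axis) in each sample for the 16 pseudogenes named by rule, ordered by mean level (top), and for the parent gene of each (bottom), with IVM in blue, IVO in orange and bars at the group means (n = 3). Rpl34-ps1, Rps13-ps2, Rpl10-ps3 and Rpl10-ps1 show separate groups, Rpl15-ps1 has its IVO samples on top, and the parents Rpl12 and Rps18 lie below their copies.

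The most negative log2FC among the called members was in the Rpl10 family. Rpl10 encodes a protein of the large subunit that is added late in its assembly. Its copy Rpl10-ps1, on chr2:105384546-105385190 in an intron of the noncoding RNA Pax6os1, was at 21.56, 17.56 and 25.81 FPKM in IVM and at 0.00, 0.05 and 0.00 FPKM in IVO. The IVO values lie below the 0.421 to 0.433 FPKM that 3 fragments per library would give, so the copy was not distinguishable from 0 in IVO. The fitted log2FC of -4.46 (SE 0.23, adjusted p = 0.00053 by limma) depends on the pseudocount.

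Rpl10-ps3, on chr9:50255501-50256268, was at 47.37, 52.18 and 57.31 FPKM in IVM and 11.52, 7.51 and 8.03 FPKM in IVO (log2FC -2.43, SE 0.22, adjusted p = 0.00123 by limma). Rpl10 itself was at 213.10, 117.02 and 153.34 FPKM in IVM and 64.95, 63.94 and 81.09 FPKM in IVO (log2FC -1.16, adjusted p = 0.0176 by limma). All 3 genes had separate groups, and the fitted log2FC of both copies was more negative than that of the parent. The difference between Rpl10-ps1 and Rpl10 on the log2(FPKM + 1) scale was -2.81 ± 0.38 in IVM and -6.12 ± 0.21 in IVO, and that of Rpl10-ps3 was -1.57 ± 0.52 and -2.84 ± 0.40 (SD, n = 3). The members of the family made up 25% to 37.4% of its level in IVM and 9.0% to 15.1% in IVO. Since the coding sequences are identical, 0% of the windows of Rpl10-ps1 and 4.2% of those of Rpl10-ps3 are unique, and this shift cannot be told apart from a different division of the same reads.

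Rpl31-ps8 (chr15:90648482-90648859) holds the coding sequence of Rpl31, a large subunit gene, with no mismatch. It was at 45.86, 59.42 and 58.71 FPKM in IVM and at 10.57, 11.12 and 1.39 FPKM in IVO, with no overlap, and the last IVO sample was far below the others. The log2FC was -2.99 (SE 0.60, adjusted p = 0.0137 by limma), and the adjusted p was 0.0527 without IVM replicate 2 and 0.0511 without IVM replicate 3. Without IVO replicate 3, the low sample, the log2FC was -2.22 and the call was made. A second copy, Rpl31-ps7, differs from Rpl31 at 23 bases and has 100% unique windows. It was at a lower level, with 2.22, 4.68 and 0.94 FPKM in IVM and 2.33, 2.11 and 2.14 FPKM in IVO, where the groups overlapped (log2FC -0.04, SE 0.39, adjusted p = 0.954 by limma). At 400 bases, 3 fragments would give 0.814 FPKM in IVM replicate 3 and 1.106 to 1.206 FPKM in IVO. The values of Rpl31-ps7 in these samples are not far above that level, so a lack of change is not read from them. The parent was at 81.65, 61.40 and 51.44 FPKM in IVM and 24.96, 15.39 and 24.10 FPKM in IVO.

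Rpl30-ps8, a copy of the large subunit gene Rpl30 on chr12:99013489-99013833, was at 14.65, 16.64 and 16.23 FPKM in IVM and 3.05, 4.08 and 1.58 FPKM in IVO. The groups were far apart against their spread (log2FC -2.16, SE 0.28, adjusted p = 0.00334 by limma), while Rpl30, at 18.02, 9.44 and 7.26 FPKM in IVM and 5.54, 4.90 and 7.73 FPKM in IVO, was not called (log2FC -0.76, adjusted p = 0.158 by limma). Of the windows of Rpl30-ps8, 26.4% are unique. The remaining members called lower were Rps7-ps3 (log2FC -1.41), Rps23-ps1 (-1.03), Rps18-ps6 and Rpl12-ps2, where Rps7-ps3 and Rps23-ps1 were chosen with their values in view. Of the 12 members called lower, 8 were called in all 6 fits that left out 1 sample, and Rps23-ps1 was called in 3 of them. Rps23-ps1 also lost its call with median-ratio scaling, quantile normalization, the length trend removed and the replicate block, and Rps7-ps3 lost its call with quantile normalization.

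Rpl12-ps2 was the one called member with 100% unique windows. It lies on chr11:20240063-20240383, overlaps no other gene and covers 65.1% of the coding sequence of the large subunit gene Rpl12 at 91.4% identity. Its values were 63.89, 81.00 and 77.85 FPKM in IVM and 22.68, 19.91 and 34.04 FPKM in IVO, so that every IVM sample was above every IVO sample. The mean was 74.2 ± 9.11 FPKM in IVM and 25.5 ± 7.49 FPKM in IVO (SD, n = 3), with a log2FC of -1.53 (SE 0.24, adjusted p = 0.00628 by limma). With the length trend removed the log2FC was -0.99, just short of the threshold for a call. With fragment numbers not divided by length it was -2.17 (adjusted p = 0.00298 by limma).

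Rpl12 was listed at 0.00, 0.28 and 0.66 FPKM in IVM and 0.14, 0.00 and 0.54 FPKM in IVO, under 1 FPKM in all 6 samples. The copy's mean FPKM was 185 times that of the parent. This ratio is per length. The copy is much shorter than Rpl12, listed at 1242 bases, so the ratio in fragments is smaller and was not computed. Another Rpl12 copy without the "-ps" suffix, Gm10275, named after its values were seen, was at 7.17, 13.83 and 17.27 FPKM in IVM and 3.39, 2.32 and 0.92 FPKM in IVO. In this family the listed signal therefore lay in copies, and the parent row held almost none of it.

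Rps18, a small subunit gene, was also listed below its copies. It was at 1.87, 0.20 and 0.88 FPKM in IVM and 0.23, 0.68 and 1.16 FPKM in IVO. Rps18-ps5, on chr13:28441511-28442117, was at 6.37, 3.77 and 7.42 FPKM in IVM and 6.25, 6.61 and 5.98 FPKM in IVO, with overlapping groups (log2FC 0.13, adjusted p = 0.768 by limma). Rps18-ps6, on chr13:97896580-97897140 and annotated as protein-coding, was at 7.2, 7.21 and 6.92 FPKM in IVM and 2.92, 2.15 and 1.91 FPKM in IVO, and was called lower (log2FC -1.30, SE 0.21, adjusted p = 0.00712 by limma), a call lost with quantile normalization (-0.83). Both copies hold the whole coding sequence, with 3 and 4 mismatches and 44.5% and 53.5% unique windows. The copies took 88.3% to 98.3% of the level of the Rps18 family over the 6 samples.

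Rpl15-ps1 was the second highest member and went the other way. It lies on chr11:21903140-21903703, overlaps no other gene, and has 100% unique windows. Against the coding sequence of Rpl15, a large subunit gene, it has 86.5% identity with 32 mismatches and 2 gaps that shift the reading frame. The open frame from the start codon shared with the parent has 56.9% of the parent's length. Its values were 99.12, 115.17 and 124.56 FPKM in IVM and 158.91, 161.63 and 166.53 FPKM in IVO, where all IVO samples were above all IVM samples. The mean was 113 ± 12.9 FPKM in IVM and 162 ± 3.86 FPKM in IVO (SD, n = 3).

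The difference of Rpl15-ps1 did not pass the test (log2FC 0.53, SE 0.16, adjusted p = 0.0581 by limma), and it passed both thresholds only after quantile normalization (log2FC 1.04, adjusted p = 0.0113 by limma). With fragment numbers not divided by length the log2FC was 0.34 (adjusted p = 0.239 by limma). Rpl15 was at 33.46, 39.43 and 38.74 FPKM in IVM and 33.30, 27.92 and 41.06 FPKM in IVO, and its groups overlapped (log2FC -0.14, adjusted p = 0.68 by limma). Rpl15-ps1 was thus listed above its parent in every sample. The other detected copies of Rpl15, all with fewer unique windows, stayed at or below 8.04 FPKM.

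Rps15a-ps4, named after its values were seen, was the other member with every IVO value on top. It was at 19.00, 10.84 and 15.10 FPKM in IVM and 30.27, 25.80 and 23.88 FPKM in IVO (log2FC 0.82, SE 0.25, adjusted p = 0.0514 by limma). It has 80.9% unique windows and overlaps an exon of a long noncoding RNA on the same strand. It was called higher with median-ratio scaling (log2FC 1.13), with quantile normalization (1.3) and with the length trend removed (1.08). Its parent Rps15a, a small subunit gene, was at 371.09 to 659.37 FPKM in IVM and 418.72 to 466.93 FPKM in IVO.

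**Figure D3:**
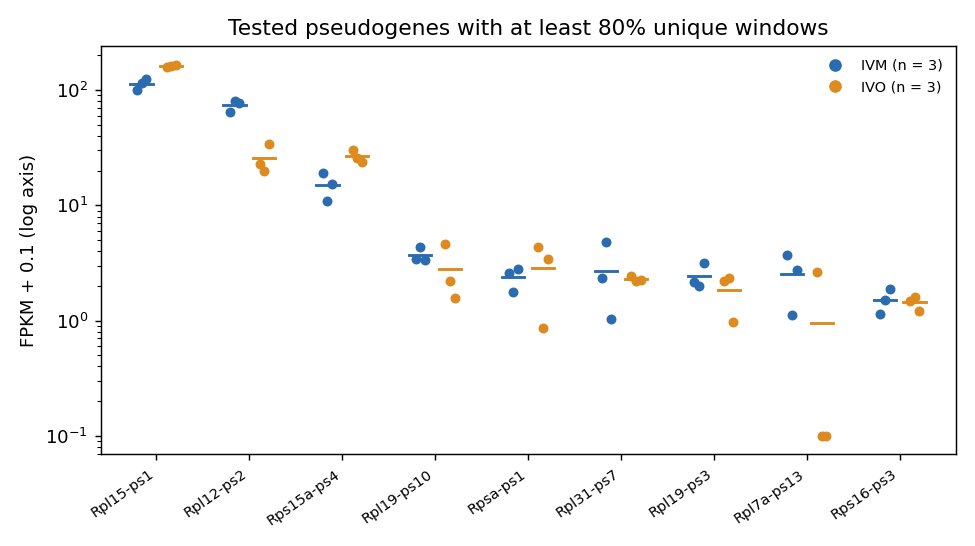
FPKM plus 0.1 (log axis) in each sample for the 9 tested pseudogenes with at least 80% unique windows, ordered by mean level, with IVM in blue, IVO in orange and bars at the group means (n = 3). Rpl12-ps2 is lower in IVO without overlap, Rpl15-ps1 and Rps15a-ps4 have all IVO samples on top, and the other 6 overlap at under 5 FPKM.

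The tested members were also described by their share of unique windows. The median log2FC was -1.33 for the 17 tested members with no unique window, -0.91 for 12 with under 50%, -0.60 for 6 with 50% to under 100%, and -0.31 for 7 with all windows unique, against -0.30 over all tested genes. The members called lower in these classes were 5, 5, 1 and 1. In the same order, 4, 0, 3 and 1 of these members had an IVO mean below 1 FPKM and passed the filter through IVM, and the medians of the others were -1.03, -0.91, 0.08 and -0.18, over 13, 12, 3 and 6 members. The filter thus fixed part of these values, and no trend is read from them. The median SD within groups on the log2 scale was 1.036 for members with no unique window and 0.358 for those with all windows unique, beside 0.333 over all tested genes. Mean level differs between these classes as well, and its part in these medians was not tested.

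Copies that share every base had values that differed widely between samples. Rpl35a-ps2, Rpl35a-ps3, Rpl35a-ps4 and Rpl35a-ps6, copies of the large subunit gene Rpl35a, have the same 333 bases, with 1 mismatch to the parent and 0% unique windows. Rpl35a-ps3 was at 69.71, 12.58 and 2.43 FPKM in IVM and 31.71, 0.00 and 22.52 FPKM in IVO (log2FC -0.70, SE 1.53, adjusted p = 0.78 by limma). The others were named after their values were seen. Rpl35a-ps4 was at 23.67 FPKM in IVM replicate 3 and at 0 in the other samples, and Rpl35a-ps6 was at 0.00, 11.97 and 3.19 FPKM in IVM and at 0 in IVO.

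Summed, the Rpl35a members were at 69.71, 24.59 and 29.29 FPKM in IVM and 34.81, 0.00 and 22.52 FPKM in IVO. The groups of these sums overlapped, with all the members at 0 in IVO replicate 2. The sums leave out Gm10243, a copy without the "-ps" suffix, named after its values were seen. Gm10243 was at 0.00, 17.24 and 16.94 FPKM in IVM and 0.00, 17.34 and 0.00 FPKM in IVO, so the overlap holds for the members only. The parent Rpl35a, at 80.68, 65.86 and 54.01 FPKM in IVM and 27.47, 24.64 and 26.79 FPKM in IVO, was steadier than any of its copies. Since reads cannot separate identical sequences, no change is read from a single copy of this family. A like spread was seen in Rpl17-ps5, with no unique window, at 9.74, 67.20 and 0.25 FPKM in IVM and 0.21, 30.43 and 0.00 FPKM in IVO, beside a parent mean of 249 FPKM.

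At least 3 members were detected in the families of Rpl7a, Rpl10, Rpl15, Rpl17, Rpl30, Rpl31, Rpl35a, Rps2 and Rps18. All 4 detected copies of Rpl7a, a large subunit gene, were tested and none was called, with log2FC from -1.39 to -0.67. Rpl38-ps2, which holds the coding sequence of the large subunit gene Rpl38 with no mismatch, was at 3.88, 36.99 and 14.95 FPKM in IVM and 5.99, 10.95 and 8.81 FPKM in IVO and was not called (log2FC -0.62, adjusted p = 0.562 by limma). That coding sequence has 213 bases, and mean fragments were 208 to 217 bases in IVM and 249 to 264 in IVO. FPKM of so short a copy are uncertain, and it was left out of the fit of fragment numbers, limited to at least 300 bases. Reads of the shared sequence also fit both genes. Rpl38 itself was at 71.79, 45.20 and 31.54 FPKM in IVM and 5.51, 6.88 and 10.52 FPKM in IVO (log2FC -2.51, adjusted p = 0.00419 by limma).

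Across the members, a pseudogene was usually listed below its parent. Among the 62 detected members the median ratio of mean FPKM to that of the parent was 0.123, and 11 had a mean above the parent's, 5 of them in every sample. Of the 39 pairs in which both genes were tested, 20 members had a more negative log2FC than the parent and 19 a less negative one. Both were called lower in 6 pairs, the parent alone in 13, the member alone in 4 and neither in 16.

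The per-sample difference between a member and its parent, on the log2(FPKM + 1) scale, overlapped between the groups in 30 of these 39 pairs. It was lower in IVO without overlap in 3 and higher in 6, and no test over the pairs was made. The same count was not made for other pairs of genes, so nothing is read from these numbers. Besides the Rpl10 copies, and with the same limit of shared reads, it was lower in IVO for Rpl34-ps1, at 1.33 ± 0.07 in IVM and 0.90 ± 0.20 in IVO (SD, n = 3). It was higher in IVO for Rpl15-ps1, at 1.57 ± 0.07 and 2.24 ± 0.25, and for Rpl31-ps7, at -4.30 ± 0.73 and -2.79 ± 0.34. The other members higher in this sense were Rpl38-ps2, Rps16-ps3, Rps2-ps6 and Rpsa-ps1, the last 3 chosen with their values in view. The limit of length given for Rpl38-ps2 holds here too. Rps16-ps3, at 1.05 to 1.78 FPKM in IVM and 1.12 to 1.51 FPKM in IVO, has 100% unique windows and a log2FC of -0.04, where its parent Rps16 had a log2FC of -0.70. The pseudocount of 1 draws the log2FC of so low a member toward 0, and its part in these differences was not tested.

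**Figure D4:**
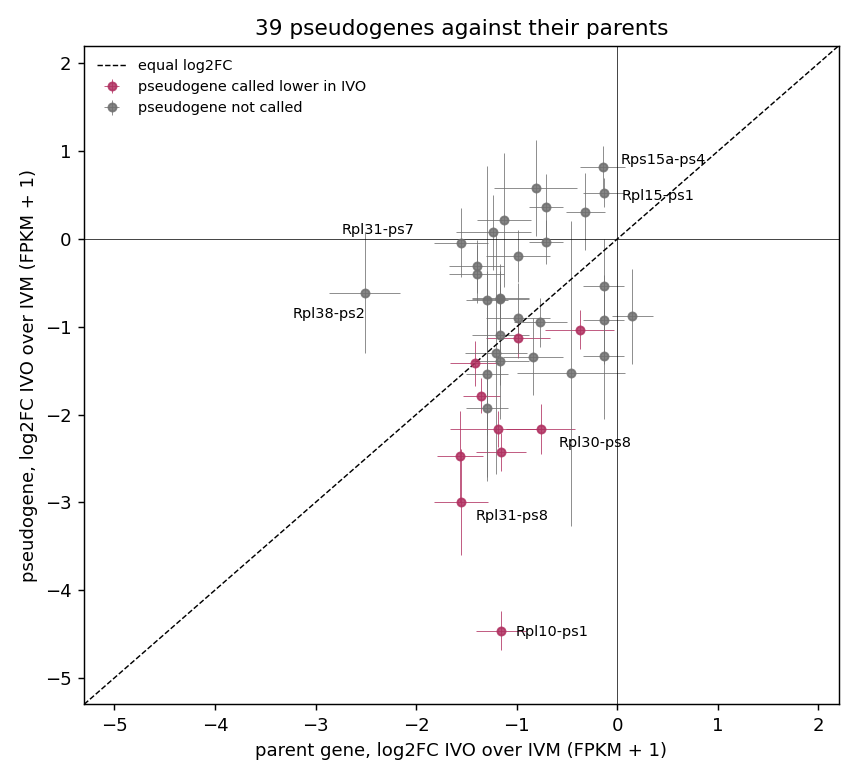
Log2FC (IVO over IVM, FPKM + 1) of 39 tested pseudogenes against that of their parent genes, with standard errors as bars, the members called lower in IVO in red and a dashed line of equal log2FC. 20 points lie below the line and 19 above it, with Rpl10-ps1 farthest below.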

How the data were processed

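Total RNA of metaphase II oocytes was converted to full-length cDNA with a SMART-Seq v4 kit, made into Nextera XT libraries and sequenced as paired reads of 150 bases. As the study's methods and the submitters' processing notes have it, reads were aligned to GRCm39 with HISAT2 (2.1.0) and gene levels were estimated with RSEM (1.3.3), which divides reads that fit several copies. The annotation release is not given in the sources used here. The deposited values used were the FPKM of the 6 samples, which the authors did not scale between libraries. The group means deposited beside them were not used. The gene length column holds the transcript length in bases. No count table was analysed here.

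The 322 members, the gene lists and the tests were chosen with earlier results of these data known. The parent was the gene named by the symbol without its "-ps" suffix. It was listed for all members but 1. All 322 members were found in the GENCODE annotation of GRCm39, where 313 have the listed length. Members were aligned to the parent's coding sequence with Biopython 1.88 (local, match 2, mismatch -3, gap opening -6, extension -1), and 100-base windows were counted on both strands of the reference genome, which is not the ICR stock. Depth was inferred from 13829 genes, and 82.3% to 84.9% of low values lay within 0.1 of a whole fragment. Intervals were not given because these numbers cover counting error only.

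Genes with a mean of at least 1 FPKM (18818) were tested with limma 3.58.1 in R 4.3.3 (lmFit, eBayes with trend, two-sided) on log2(FPKM + 1), with Benjamini-Hochberg adjustment over all of them. Fold changes are on that scale and understate the change of low genes. An exact permutation test of 3 against 3 cannot go below p = 0.1 and was not used. The scripts were tested on simulated data. Members were named by rule as the 10 with the highest mean, the 8 most negative and up to 5 most positive of those called with groups that did not overlap, the 5 with the largest ratio to the parent, and the 5 whose log2FC differed most from the parent's. Alternatives were the pseudocount, the filter, median-ratio scaling, quantile normalization, removal of the trend with length, Ensembl genes only, a replicate block and leaving out each sample. Fragment numbers not divided by length were added after seeing the data.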

Additional observations from a re-analysis of the deposited data

How the results depend on the processing

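The count of members called lower in IVO stayed between 8 and 13 under all alternatives, beside 12 as reported, and 5 of the 12 were called in every one: Rpl10-ps1, Rpl10-ps3, Rpl30-ps8, Rpl34-ps1 and Rps13-ps2. The count of members called higher was 1 with median-ratio scaling and 1 with the length trend removed (Rps15a-ps4), 2 with quantile normalization (also Rpl15-ps1), and 0 to 1 when a sample was left out (Rpl21-ps15 without IVM replicate 2). The median log2FC of the tested members was -1.26 with a pseudocount of 0.1, -0.14 with no filter (118 members), -1.30 at a mean of at least 5 FPKM (21 members), -0.67 with median-ratio scaling, -0.45 with quantile normalization and -1.24 with fragment numbers, and it ranged from -1.001 to -0.78 when a sample was left out. The protein-coding genes called lower were 23 after median-ratio scaling of the libraries and 18 after quantile normalization. Their median was -0.83 and -0.62 with these, -1.36 with fragment numbers, and -1.22 to -0.96 when a sample was left out. The ratio of the summed FPKM was 0.5525 with median-ratio scaling. Detected members were 118 at any value above 0 and 22 at 1 FPKM in all 6 samples. Over Ensembl genes only, 2056 genes were called (1972 lower, 84 higher) in place of 3480. The filter changes the members tested, and the scalings move all genes. The cause of these changes was not tested.

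Signs turned only for named members that were not called. Rpl31-ps7 had a log2FC of 0.0203 with a pseudocount of 0.1, 0.17 with median-ratio scaling, 0.45 with quantile normalization, 0.40 with the length trend removed and -0.42 to 0.35 when a sample was left out, the latter without IVM replicate 2. Rpl35a-ps3 ranged from -1.76 to 0.90 when a sample was left out, with 0.43 without IVM replicate 1 and 0.90 without IVO replicate 2. Rpl38-ps2 had 0.12 with the length trend removed and ranged from -1.40 to 0.085 when a sample was left out, the latter without IVM replicate 2. Rps18-ps5 had -0.0162 with fragment numbers and ranged from -0.11 (without IVM replicate 2) to 0.30 when a sample was left out. The replicate numbers did not pair the samples (correlations of deviations -0.0618, -0.0176 and -0.1072, with no sample closest to its own number). With the replicate block, 11 members and 35 protein-coding genes were called lower, and 0 of each higher.

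Depth limits any statement on members under about 1 FPKM, and shared sequence limits those with few unique windows, whose FPKM are estimates of a division between copies. The uniqueness of windows was measured in the reference genome and not in the mice sampled. Another 265 listed pseudogenes without the "-ps" suffix share windows with a parent, of which 51 were detected, and they were not among the members.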
